A study of Mus musculus with 16 samples.

Results

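The aryl hydrocarbon receptor (AhR) pathway and the cytochrome P450 enzymes around it were examined in alveolar epithelial type II (AT2) cells, the surfactant-making cells of the alveolus, from newborn mice. The 10 genes were chosen by symbol: the receptor Ahr, its repressors Ahrr and Tiparp, the P450 genes Cyp1a1, Cyp1a2, Cyp1b1, Cyp2b10, Cyp2s1 and Cyp4b1, and the P450 reductase gene Por. All 10 were found among the 20725 genes measured, on 13 array features. For Ahr, Ahrr and Tiparp, which have 2 features each, the one with the higher mean stood for the gene and the other is given beside it.

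RNA was hybridised to 16 single-colour arrays labelled with Cy3. Every pup was at postnatal day 3. The groups were 4 wild-type samples in normoxia, 4 Fgf10+/- samples (1 allele of the fibroblast growth factor 10 gene lost) in normoxia, 6 wild-type samples in hyperoxia and 2 Fgf10+/- samples in hyperoxia, where hyperoxia was 85% oxygen in a chamber from postnatal day 0 to day 3. These numbers follow the sample titles, whereas the series text gives 4 per group. The labels used here do not say whether a sample is 1 pup or a pool, nor give the strain or how the cells were purified, so p-values measure only the spread between these samples, which may in part be technical.

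AhR is a ligand-activated transcription factor. It waits in the cytoplasm with HSP90 chaperones, and once a planar aromatic ligand binds it moves to the nucleus, pairs with ARNT and binds DNA elements with a GCGTG core. Its classic targets are the family 1 P450 enzymes, which oxidise the ligands, and its own brakes: AHRR competes for ARNT, and TIPARP (PARP7) ADP-ribosylates the receptor. Microsomal P450 enzymes take their electrons from NADPH through the reductase POR, and in the mouse lung much P450 is found in the club cells of the airways.

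The xenobiotic response element core was looked up in the RefSeq promoters (GRCm38.p6, 250 bases before to 50 after the start), because AhR binds elements with this core. Elements outside this window were not searched, so neither a match nor its absence tells whether a gene is an AhR target. Promoters of 9 of the 10 genes were matched by symbol, all but that of Ahr, and 6 of these 9 held at least 1 GCGTG on either strand, as did 32.4% of the 32851 promoters in the table. GCGTG is also a form of the hypoxia response core, so the same letters can belong to another factor. The longer form TNGCGTG, searched on both strands, was present in the Ahrr promoter only among the 9, against 5.1% of all promoters. A site is shown for each repressor, for Cyp1a1 and Cyp1b1, the classic targets, and for Por, with the core in capitals. It reads CACGC where the core lies on the other strand.
Ahrr (chr13:74292342-74292370, minus strand, core from position -27): gcggggcggctcGCGTGctggggtggggc
Tiparp (chr3:65528265-65528293, plus strand, core from position -170): ctccgtccggagCACGCgcacgggaggcg
Cyp1a1 (chr9:57697547-57697575, plus strand, core from position -54): tcagataaggagGCGTGgccaacagacac
Cyp1b1 (chr17:79715121-79715149, minus strand, core from position -76): cgtcccgcccctCACGCcccaccccctaa
Por (chr5:135689071-135689099, plus strand, core from position -62): ctcaagagcgcgCACGCggcttttgtggg
Positions count from the start of transcription used in that table, and the Ahrr site is the TNGCGTG match. Cyp1a2, Cyp2s1 and Cyp4b1 had no GCGTG in this window. A match is a string of letters and not a measured binding site.

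Each value is a log2 intensity as the authors deposited it, already normalized, and a difference of 1 is a doubling. The median of all values on the arrays was 4.34, and no detection flags came with them, so a feature near or below 4.34 is called dim and may hold little signal. AT2 markers were bright on every array: the mean of 10 of them lay between 11.06 and 12.38. Markers of other cells were present too. The mean of 12 club and secretory markers was 9.63 to 11.67 in wild-type normoxia, 7.98 to 11.67 in wild-type hyperoxia, 10.87 to 11.86 in Fgf10+/- normoxia and 8.73 to 10.21 in Fgf10+/- hyperoxia, and 1 of the 12 (Sult1d1) was below 4.34 on average. Of 10 thymocyte markers, 3 (Rag2, Themis and Arpp21) were below 4.34 on average. The mean of the 10 reached 6.43, 6.38, 5.74 and 5.54 in wild-type normoxia replicate 4 and Fgf10+/- normoxia replicates 2, 1 and 4. It was 4.01 to 4.42 in wild-type hyperoxia and 4.27 to 4.31 in Fgf10+/- hyperoxia, a level called dim here. The 4 normoxia samples named are called thymocyte-rich below. With them left out, Fgf10+/- normoxia is replicate 3 alone, assumed to vary like the other groups. Wild-type normoxia replicate 1 stood apart in other lists: its smooth muscle mean was 9.03 against 6.26 to 6.73 in the other 3 samples of the group, its fibroblast mean 10.52 against at most 8.40 and its ciliated mean 7.09 against 8.31 to 8.97. Fgf10 itself was low in every group, with values of 4.02 to 5.89 on its brightest feature and overlap between genotypes. Whether that feature lies in the deleted stretch is not known here, so it does not check the labels. In bulk samples like these, fewer cells of a type and less RNA per cell cannot be told apart.

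None of the 10 genes passed the test in any of the 5 comparisons. Of the 50 tests, 0 had an adjusted p under 0.05 by limma with adjustment over all 20725 genes, and 5 had an unadjusted p under 0.05. In wild type, hyperoxia changed 3.13% of all genes (649, but 323 without normoxia replicate 2 and 381 without normoxia replicate 4). In Fgf10+/- samples it changed 2.45% (507, but 252 and 278 without normoxia replicates 1 and 4, and 90 and 108 without hyperoxia replicates 1 and 2). Genotype in normoxia gave 0.00965% of genes (2), genotype in hyperoxia 0.0% (0 genes, 906 at an unadjusted p under 0.05) and the interaction 0.00965% (2). With these percentages, 0 of 10 is close to the background in each comparison, and it does not show that the genes were unaffected. At an unadjusted p under 0.05 stood 2 of the 10 in each hyperoxia comparison, against 18.2% of all genes in wild type and 16.7% in Fgf10+/-. The difference was negative for 7 of 10 in wild type and 8 of 10 in Fgf10+/-, against 58.3% and 53.4% of all genes, and for 3 of 10 in the interaction, against 46.2%. Members whose groups did not overlap were 0 for hyperoxia in wild type (7.16% of all genes), 1 for hyperoxia in Fgf10+/- (25.9%), and 0 between genotypes in normoxia (3.46%) and in hyperoxia (6.99%). The higher and lower calls were 367 and 282 in wild type and 245 and 262 in Fgf10+/-. With each array centred on its median over genes they were 509 and 161, and 270 and 167, because this moved the median difference over all genes from -0.08 to 0.03 and from -0.04 to 0.06. The members moved with it, Por from -0.77 to -0.66 in wild type. The 95% intervals of the log2 differences reached from 0.517 to 1.17 on each side of the value for hyperoxia in wild type and from 0.693 to 1.57 in Fgf10+/-.

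**Figure D1:**
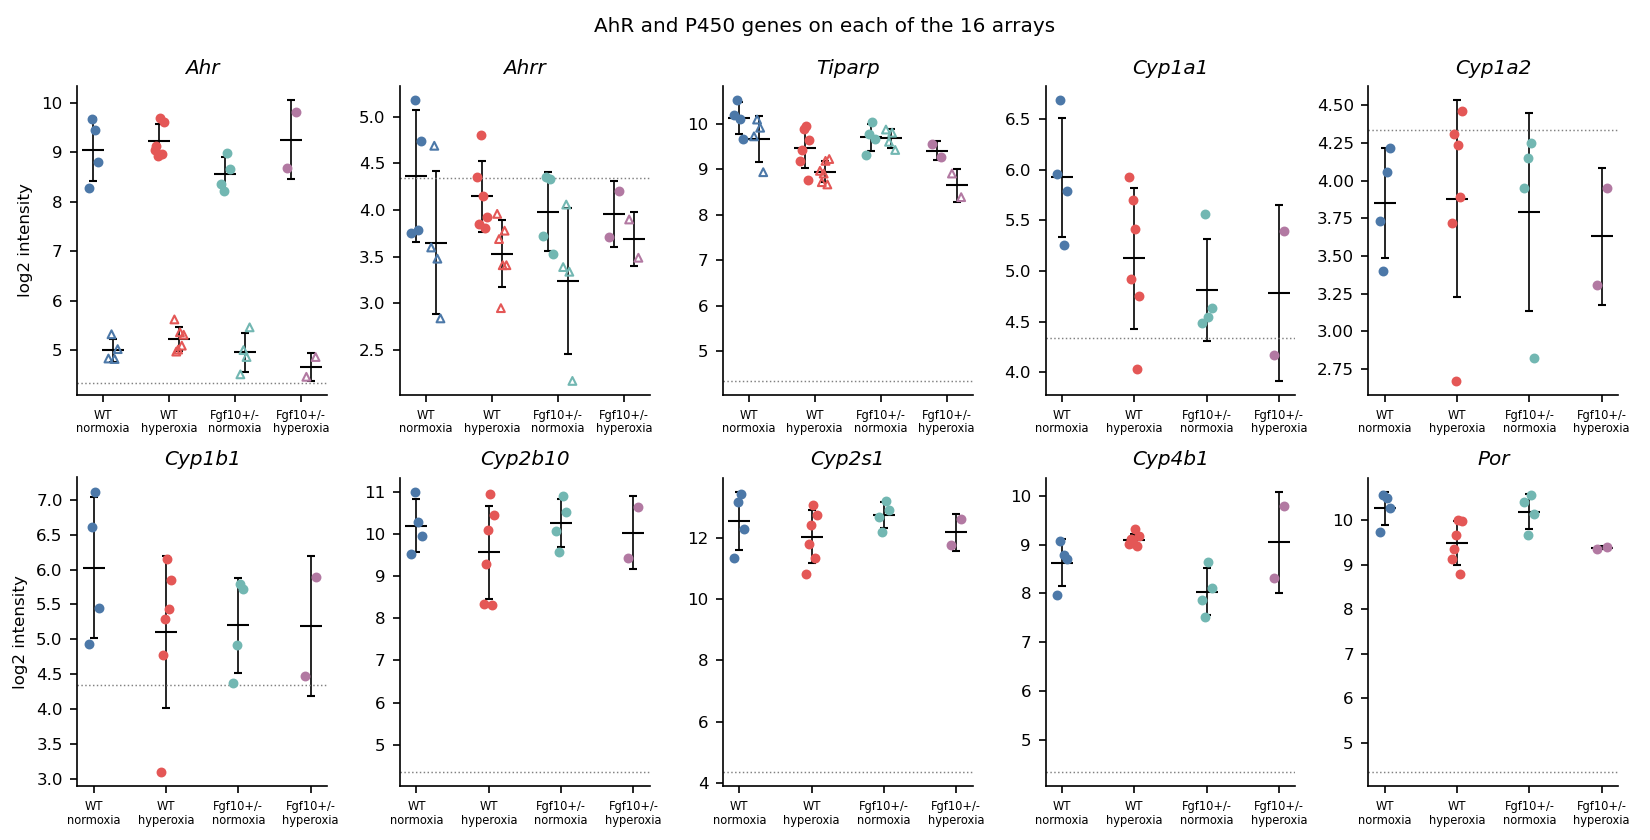
Log2 intensity (vertical axis, scaled to each gene) of the 10 genes in the 4 groups. Filled circles are the feature with the higher mean, open triangles the second feature of Ahr, Ahrr and Tiparp, 1 point per array, and the bars are the mean and SD. The dotted line is the median of all values, 4.34. Por and Tiparp lie lower, and Cyp4b1 higher, in most hyperoxia samples, while Ahrr and Cyp1a2 scatter around or below the line.

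Within the comparisons of hyperoxia with normoxia, the genes with the smallest p-values were Por, Tiparp and Cyp4b1. Cyp1a1, described below, had an unadjusted limma p of 0.0159 between genotypes in normoxia. For Tiparp and Cyp4b1 the smallest values were 0.0171 and 0.0174. Por, the electron donor of the microsomal P450 enzymes, was 9.72, 10.55, 10.49 and 10.28 in the 4 wild-type normoxia samples. In the 6 wild-type hyperoxia samples it ranged from 8.78 to 10.01 with a median of 9.52. Wild-type hyperoxia replicates 4 and 6, at 10.01 and 9.98, overlapped normoxia replicate 1. The difference was -0.77 (SE 0.26, a 1.71-fold lower level, limma adjusted p = 0.128, unadjusted 0.00957), and across the alternatives the adjusted p lay between 0.0683 and 0.289. In Fgf10+/- normoxia Por was 10.41, 9.66, 10.56 and 10.13, and in Fgf10+/- hyperoxia 9.36 and 9.40. These groups did not overlap, which was true of 25.9% of all genes in this comparison, with a difference of -0.81 (SE 0.35, limma adjusted p = 0.259). With the 4 thymocyte-rich libraries left out the wild-type value was -0.76, and the Fgf10+/- value, against 1 normoxia sample, -1.18.

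Tiparp, the ADP-ribosylating brake on the receptor, was 10.19, 10.53, 10.11 and 9.67 in wild-type normoxia. In wild-type hyperoxia it ranged from 8.76 to 9.95 with a median of 9.54, so that of the normoxia samples only replicate 4 fell within the hyperoxia range. The difference was -0.65 (SE 0.24, limma adjusted p = 0.167, unadjusted 0.0171). The second feature gave -0.73 (SE 0.22, limma adjusted p = 0.105 over all 31439 named features). In Fgf10+/- samples the features disagreed in size. The brighter was 9.32, 9.79, 10.05 and 9.67 in normoxia and 9.56 and 9.27 in hyperoxia, with a difference of -0.29 (limma adjusted p = 0.712), or -0.44 and -0.15 without hyperoxia replicates 1 and 2 and -0.18 without normoxia replicate 3. The second was 9.88, 9.61, 9.81 and 9.43 in normoxia and 8.91 and 8.39 in hyperoxia, without overlap, with a difference of -1.03 (SE 0.30, limma adjusted p = 0.0908). Over the 16 arrays the 2 features had a Pearson r of 0.70. They are probes for the same transcript and are no replicates of each other.

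Cyp4b1, which hydroxylates fatty acids and activates several lung toxicants, stood on the other side. It was 7.96, 9.08, 8.79 and 8.70 in wild-type normoxia and 8.97 to 9.31 in wild-type hyperoxia (median 9.07), so that normoxia replicate 2 alone lay inside the narrow hyperoxia range. The difference was 0.47 (SE 0.28, limma adjusted p = 0.408), and 0.24 without normoxia replicate 1. In Fgf10+/- samples Cyp4b1 was 7.87, 7.52, 8.65 and 8.12 in normoxia and 8.31 and 9.78 in hyperoxia. The difference was 1.00 (SE 0.38, 95% interval 0.20 to 1.80, limma adjusted p = 0.188), 1.74 without hyperoxia replicate 1, 0.27 without hyperoxia replicate 2 and 0.40 with the thymocyte-rich libraries left out, against normoxia replicate 3 alone. The size in Fgf10+/- samples thus depends on which libraries enter.

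The receptor gene Ahr was 8.27, 9.67, 9.45 and 8.81 in wild-type normoxia and 8.92 to 9.70 in wild-type hyperoxia (median 9.09). It was 8.36, 8.22, 8.99 and 8.66 in Fgf10+/- normoxia and 8.69 and 9.82 in Fgf10+/- hyperoxia. The group means ran from 8.56 in Fgf10+/- normoxia over 9.05 in wild-type normoxia and 9.23 in wild-type hyperoxia to 9.25 in Fgf10+/- hyperoxia, and every pair of neighbours in this order overlapped. Hyperoxia differed from normoxia by 0.18 (SE 0.29) in wild type and 0.70 (SE 0.39) in Fgf10+/-, with limma adjusted p-values of 0.804 and 0.404. The wild-type value was -0.08 without normoxia replicate 1. The Fgf10+/- value was 1.26 without hyperoxia replicate 1, 0.13 without hyperoxia replicate 2 and 0.20 with the mean of both features. The second Ahr feature was low, at 4.46 to 5.62 over all samples, correlated with the first at r = 0.37 and changed by -0.29 in Fgf10+/-, against the sign of the first.

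Ahrr, the receptor's competitor for ARNT, was dim. Its brighter feature ranged from 3.53 to 5.18 over the 16 arrays and lay above 4.34 on 2 of 4 wild-type normoxia, 2 of 6 wild-type hyperoxia, 1 of 4 Fgf10+/- normoxia and 0 of 2 Fgf10+/- hyperoxia arrays. Differences between groups on this feature were -0.02 to -0.38 and smaller than the spread within groups. The second Ahrr feature was dimmer, with group means of 3.24 to 3.70. With hyperoxia it differed by -0.12 in wild type and 0.46 in Fgf10+/-. Between genotypes it differed by -0.41 in normoxia and 0.16 in hyperoxia. Over the 16 arrays the Ahrr features had a Pearson r of 0.30.

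Of the family 1 enzymes, which oxidise polycyclic aromatic ligands, Cyp1a1 gave the lowest genotype difference of the 10 genes. It was 5.96, 6.69, 5.26 and 5.79 in wild-type normoxia, and 4.49, 5.56, 4.55 and 4.64 in Fgf10+/- normoxia, where only replicate 2 reached the wild-type range. The difference was -1.11 (SE 0.41, 95% interval -1.99 to -0.24, unadjusted p = 0.0159, limma adjusted p = 0.696), and it was -1.36 without that replicate and -0.86 without wild-type normoxia replicate 2, the highest. At this unadjusted threshold 6.03% of all genes stood in the comparison, against 1 of the 10. In wild-type hyperoxia Cyp1a1 ranged from 4.03 to 5.93 (median 5.17), a difference of -0.80 from normoxia (SE 0.38, limma adjusted p = 0.276). In Fgf10+/- hyperoxia it was 4.17 and 5.40, a difference of -0.02. The means thus ordered as wild-type normoxia 5.92, wild-type hyperoxia 5.13, Fgf10+/- normoxia 4.81 and Fgf10+/- hyperoxia 4.79, with overlap between all neighbours. These levels are near the median of all values.

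Cyp1b1, a P450 found mainly outside the liver, had the widest intervals of the 10 genes. It was 4.93, 6.61, 7.12 and 5.45 in wild-type normoxia and 3.09 to 6.15 in wild-type hyperoxia (median 5.36), a difference of -0.93 (SE 0.55, limma adjusted p = 0.399). The value was -0.53 without hyperoxia replicate 1, whose 3.09 was the lowest, and -0.57 without normoxia replicate 3, whose 7.12 was the highest. In Fgf10+/- samples it was 4.37, 4.92, 5.80 and 5.72 in normoxia and 4.48 and 5.90 in hyperoxia, a difference of -0.02. Cyp1a2, known mainly from the liver, was dim on 15 of 16 arrays, at 2.67 to 4.46, and its group means differed by -0.25 to 0.03.

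**Figure D2:**
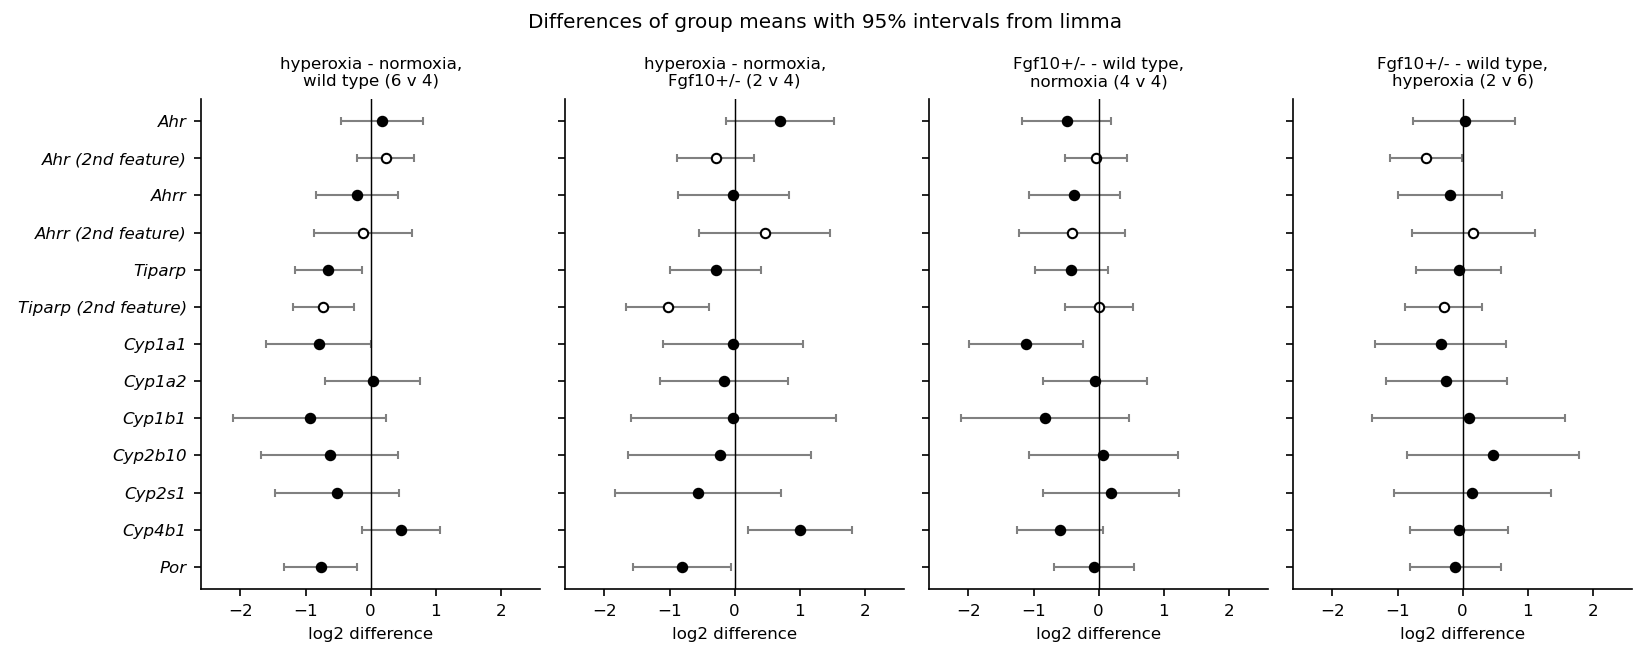
Log2 differences between group means (horizontal axis) with 95% intervals from limma, for the 10 genes and the second features of Ahr, Ahrr and Tiparp (open circles). The panels give hyperoxia minus normoxia for each genotype, then Fgf10+/- minus wild type in normoxia and in hyperoxia, with sample numbers. Por lies at -0.77 and -0.81 in the hyperoxia panels and near 0 in the genotype panels.

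Cyp2s1, an airway P450 that AhR ligands can induce, and Cyp2b10, the classic target of the nuclear receptor CAR, had high values with wide ranges. Cyp2s1 was 11.34, 13.18, 13.45 and 12.30 in wild-type normoxia, and 10.84 to 13.07 in wild-type hyperoxia with a median of 12.13. It was 12.70, 12.20, 13.20 and 12.93 in Fgf10+/- normoxia and 11.77 and 12.62 in Fgf10+/- hyperoxia. The hyperoxia differences were -0.52 (SE 0.45) and -0.56 (SE 0.60), with limma adjusted p-values of 0.589 and 0.699. The wild-type value was -0.93 without normoxia replicate 1 and -0.22 without normoxia replicate 3, with -0.32 without normoxia replicate 2 and -0.28 without hyperoxia replicate 1. The Fgf10+/- value was -0.13 without hyperoxia replicate 1 and -0.99 without hyperoxia replicate 2. Cyp2b10 was 9.53, 11.01, 10.29 and 9.96 in wild-type normoxia, 8.32 to 10.94 in wild-type hyperoxia (median 9.69), 10.08, 9.57, 10.90 and 10.52 in Fgf10+/- normoxia and 9.42 and 10.65 in Fgf10+/- hyperoxia. Its differences of -0.63 (SE 0.49) and -0.23 (SE 0.66) were also within the spread. The first was -0.36 without normoxia replicate 2 and -0.38 without hyperoxia replicate 1 or 5, and the second 0.38 and -0.85 without hyperoxia replicates 1 and 2.

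Within the groups, these genes moved with airway markers from array to array. Within wild-type hyperoxia, replicates 1 and 5 were the lowest in Cyp2s1 (10.84 and 11.36) and in Cyp2b10 (8.33 and 8.32). They were also the lowest in the mean of 10 ciliated-cell markers (6.70 and 6.80) and of the 12 club and secretory markers (7.98 in both). After subtraction of group means, Cyp2s1 followed the ciliated list at Pearson r = 0.98 (Spearman rho = 0.99; both permutation p-values 1e-05, the smallest that 100000 resamples within groups can give; adjusted p = 0.000675 for r and 0.00135 for rho over 135 relations). Without the 2 arrays farthest from the median of the list, r was 0.97. With the club and secretory list, Cyp2s1 had r = 0.91 (rho = 0.87, adjusted permutation p-values 0.00162 and 0.00619). The arrays share labelling and normalization, which also enter such a correlation.

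Cyp2b10 and Por followed the same lists. Against the ciliated markers, Cyp2b10 had r = 0.93 (rho = 0.91, adjusted permutation p-values 0.00162 and 0.0027, r = 0.95 without the 2 farthest arrays). Por had r = 0.90 (rho = 0.92, adjusted permutation p-values both 0.00225, r = 0.87 without the 2). Cyp1b1 had r = 0.81 (rho = 0.87, adjusted permutation p-values 0.00689 and 0.00454). Cyp2s1, Cyp2b10 and Por were correlated with each other at 0.87 to 0.91. For the AT2 list the values were 0.19 for Cyp2s1, 0.18 for Cyp2b10 and 0.42 for Por. With the smooth muscle and pericyte list Cyp2s1 had r = -0.68 (adjusted permutation p = 0.0433 for r and 0.0549 for rho). There Cyp2b10 had -0.50 and Por -0.57 (adjusted permutation p = 0.0809 and 0.0934 for r).

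The airway lists themselves were lower in hyperoxia without passing the test. All 12 club and secretory markers had a negative difference in both genotypes, with medians of -0.72 in wild type and -1.18 in Fgf10+/-, against -0.08 and -0.04 over all genes, and 0 of 12 were called by limma (3 and 5 at an unadjusted p under 0.05). Of the 10 ciliated markers 9 and 8 were negative, with medians of -0.65 and -0.73, and 0 were called (2 and 2 at an unadjusted p under 0.05). The part of airway cells in the values of Por, Cyp2s1 and Cyp2b10 was not tested.

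**Figure D3:**
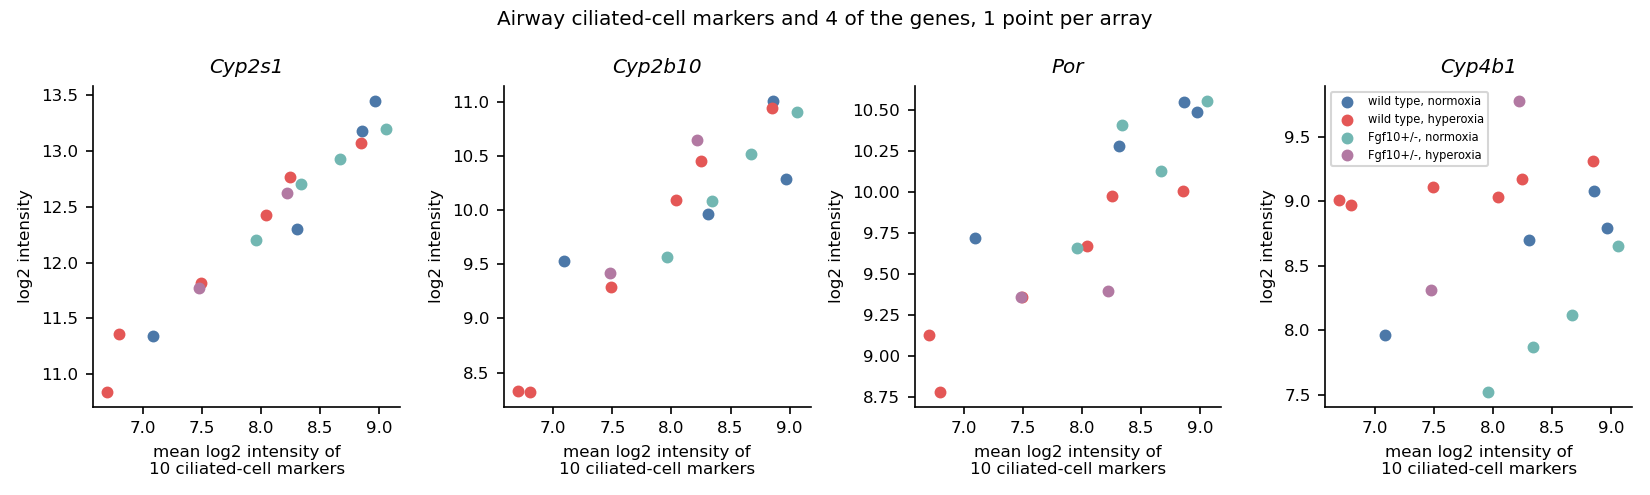
Log2 intensity of Cyp2s1, Cyp2b10, Por and Cyp4b1 (vertical axes) against the mean log2 intensity of 10 ciliated-cell markers (horizontal axis), 1 point per array, coloured by group. Cyp2s1 lies along a line through all 4 groups (r = 0.98 over the 16 arrays), whereas Cyp4b1 has r = 0.08 over the 16 arrays, its wild-type hyperoxia arrays lying between 8.97 and 9.31.

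Cyp4b1 was closest to Ahr. Over the values of the 16 arrays it followed Ahr at r = 0.90, and after subtraction of group means at r = 0.89 (rho = 0.93, adjusted permutation p-values 0.000675 and 0.00135, r = 0.86 without the 2 farthest arrays). With the ciliated list it had r = 0.08 over the values and 0.69 over the deviations from group means (rho = 0.81, adjusted permutation p-values 0.00162 and 0.00225). Within groups both genes also followed the airway set: Cyp4b1 had r = 0.67 with Cyp2s1, 0.65 with Cyp2b10, 0.55 with Por and 0.55 with the club and secretory list. For Ahr these were 0.82, 0.76, 0.68 and 0.69, and 0.82 with the ciliated list. Both Ahr and Cyp4b1 were highest in Fgf10+/- hyperoxia replicate 2, at 9.82 and 9.78. The mean of 12 endothelial markers, another cell type that could be present, was 8.21 to 8.68 in wild-type normoxia, 8.30 to 9.47 in wild-type hyperoxia, 7.46 to 7.92 in Fgf10+/- normoxia and 8.22 to 9.47 in Fgf10+/- hyperoxia. None of the 12 was below 4.34 on average. With hyperoxia 11 of the 12 had a positive difference in each genotype, with medians of 0.46 in wild type and 1.14 in Fgf10+/-. By limma 0 were called in wild type and 3 in Fgf10+/-, all higher (3.13% and 2.45% of all genes). At an unadjusted p under 0.05 by limma stood 4 and 8 of the 12, against 18.2% and 16.7% of all genes. The part of this endothelial list in the Cyp4b1 value was not tested. Cyp4b1 followed this list at r = 0.68 over the values and at 0.26 over deviations from group means (rho = 0.06, adjusted permutation p-values 0.925 and 0.952).

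Among the receptor, its repressors and the classic targets, Ahr and Cyp1b1 had r = 0.74 (rho = 0.73, adjusted permutation p-values 0.0248 and 0.0536), and 0.73 without the 2 farthest arrays. Both genes also followed the ciliated list, Ahr at r = 0.82 and Cyp1b1 at r = 0.81. The part of that airway pattern in their correlation was not tested. Ahr had r = 0.27 with Ahrr and 0.34 with Tiparp (adjusted permutation p = 0.687 and 0.443). Ahrr and Cyp1a1 had r = 0.70 (adjusted permutation p = 0.0248; rho = 0.62, adjusted permutation p = 0.0693). Without the 2 farthest arrays r was 0.59, and Ahrr is dim. Cyp1a1 and Cyp1b1 had r = -0.18 (rho = -0.19, adjusted permutation p-values 0.786 and 0.716), and Ahr and Cyp1a1 had r = 0.15. Of the 135 relations computed between the genes or with the 9 cell type lists, 28 had an adjusted p under 0.05 for r.

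**Figure D4:**
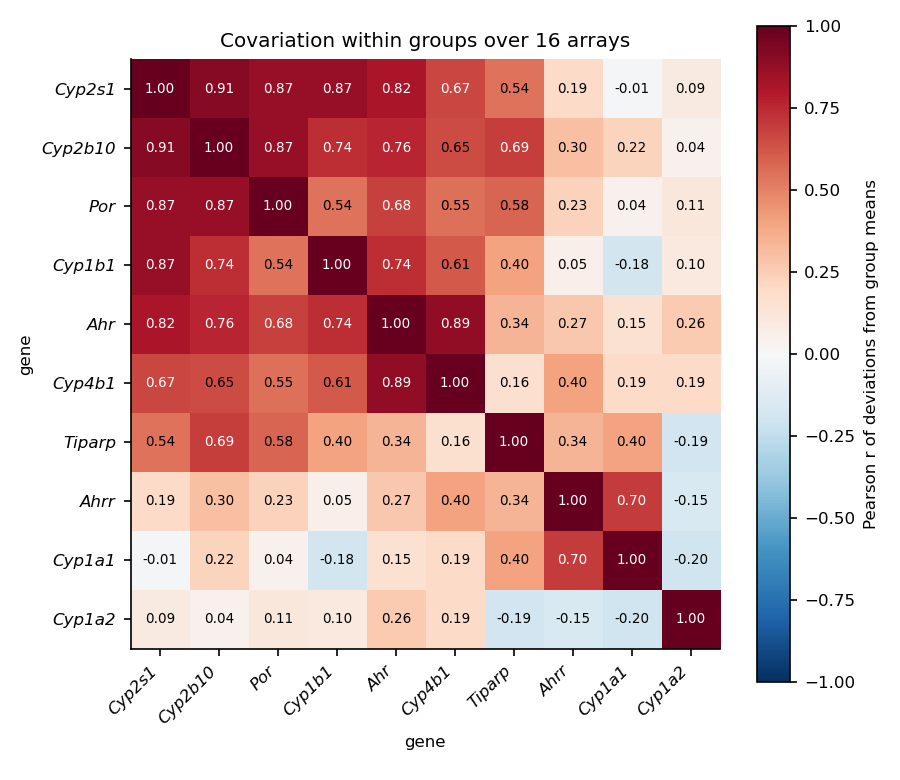
Pearson r between the 10 genes over the 16 arrays after subtraction of group means, from -1 (blue) to 1 (red). Cyp2s1, Cyp2b10 and Por form a block at 0.87 to 0.91, Ahr and Cyp4b1 stand at 0.89, and Cyp1a2 is near 0 with the others.

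The genes most like the 3 brightest members were searched among the 13302 genes with a mean above 4.34, by r of deviations from group means over the 16 arrays. For Cyp2s1 they were Aldh1a1, a retinal dehydrogenase of the club list, and the clone-named genes 1110017D15Rik and 1700016K19Rik, each at 0.99. For Cyp2b10 they were Capsl, the tight junction gene Cldn10 and the secretoglobin gene Scgb3a2, each at 0.97, of which Cldn10 and Scgb3a2 belong to the club list. For Por they were the tight junction gene Tjp3 at 0.96 and Stmnd1 and Acss1 at 0.95. As many as 315 genes followed Cyp2s1 at over 0.9, 205 followed Cyp2b10 and 127 followed Por.

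Other genes of the pathway were taken from 5 lists, of whose 47 genes 42 were measured. For comparison with the counts below, hyperoxia gave calls for 3.13% of all genes in wild type and 2.45% in Fgf10+/-. At an unadjusted limma p under 0.05 stood 18.2% and 16.7% of all genes. Of the AhR complex (ARNT proteins, chaperones, coactivators) 0 of 8 were called in any comparison by limma, with 3 at an unadjusted p under 0.05 for hyperoxia in wild type and 1 in Fgf10+/-. The list's medians were -0.13 and -0.35. Its 2 brightest genes encode the HSP90 chaperones that hold the receptor. Hsp90aa1 was 12.31 ± 0.38 (SD, n = 6) in wild-type hyperoxia and 12.78 ± 0.17 (n = 4) in normoxia, and Hsp90ab1 13.49 ± 0.23 (n = 6) and 13.86 ± 0.18 (n = 4), with limma adjusted p-values of 0.231 and 0.239.

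Of 11 other genes of the AhR battery 0 were called by limma in any comparison, with 2 and 3 at an unadjusted p under 0.05 for hyperoxia in wild type and Fgf10+/-. The medians were -0.32 and 0.14. The brightest were Nfe2l2, the NRF2 gene, which differed by -0.32 and 0.22, and the aldehyde dehydrogenase Aldh3a1, by -0.59 and -1.78 (limma adjusted p = 0.67 and 0.294).

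Of 10 other lung P450 genes 0 were called by limma, with 2 at an unadjusted p under 0.05 for hyperoxia in each genotype and medians of -0.35 and -0.16. Cyp2f2, the naphthalene-oxidising enzyme of club cells, was 14.07 ± 0.89 (n = 6) in wild-type hyperoxia and 14.40 ± 0.76 (n = 4) in normoxia. Cyp2u1, a fatty acid hydroxylase, was 11.15 ± 0.11 (n = 6) against 11.87 ± 0.36 (n = 4), without overlap, and 11.24 ± 0.21 (n = 2) against 12.05 ± 0.37 (n = 4) in Fgf10+/-. Its differences of -0.72 and -0.81 had limma adjusted p-values of 0.0552 and 0.128, the second 0.0496 with an intensity trend and robust variance. The first passed 0.05 in 3 alternatives (0.0127 to 0.0254) and without wild-type normoxia replicate 1 (0.0177, difference -0.90), while the mean of its features gave -0.32. The second feature of Cyp2u1 was dim, with group means of 3.49 to 4.05.

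Of 9 genes that supply P450 enzymes with electrons or heme, 1 fell with hyperoxia in wild type (3.13% of all genes were called) and 0 in the other comparisons. Cyb5r3, the cytochrome b5 reductase that feeds P450 enzymes beside POR, was 8.67 ± 0.20 (n = 6) in hyperoxia and 9.50 ± 0.29 (n = 4) in normoxia, a difference of -0.83 (SE 0.20, limma adjusted p = 0.0305). The groups did not overlap, and the second feature was lower as well, at 5.90 against 6.37. The call is not firm. It was lost without wild-type normoxia replicate 1, 2 or 3 (-0.84, -0.76 and -0.76) and without hyperoxia replicate 1, 2, 5 or 6 (-0.83, -0.82, -0.81 and -0.78), with each array centred on its median over genes (-0.72) and with the mean of its features (-0.65). In Fgf10+/- samples Cyb5r3 was 8.67 ± 0.30 (n = 2) against 9.45 ± 0.37 (n = 4), a difference of -0.78 (limma adjusted p = 0.148).

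Of the 4 genes of the CAR and PXR receptors and their RXR partners, 1 rose with hyperoxia in each genotype (3.13% and 2.45% of all genes were called). Nr1i3, the CAR gene, was 3.16, 3.41, 3.97 and 3.90 in wild-type normoxia and 5.28 to 7.79 in wild-type hyperoxia (median 6.38), at a difference of 2.75 (SE 0.40, limma adjusted p = 0.00092). In Fgf10+/- samples it was 3.60, 3.14, 4.05 and 3.26 in normoxia and 6.95 and 5.85 in hyperoxia, at 2.89 (SE 0.54, limma adjusted p = 0.0119), a call lost without hyperoxia replicate 1 (2.33). With the thymocyte-rich libraries left out the difference was 2.35 from 1 normoxia sample, too few to read the loss of the call there. All normoxia values of this feature lie below 4.34 and are not shown to be above background, so the sizes of both differences are uncertain. The other Nr1i3 feature was dim and flat, at 3.67 ± 0.38 (n = 6) against 3.43 ± 0.77 (n = 4) in wild type, and the mean of both features gave 1.50 in wild type and 1.31, no longer called, in Fgf10+/-. Within groups the rising feature followed the mean of 8 genes (Hsd3b2, Marchf1, Pign, Klra1, Fgf23, Idua, Mcidas, Snap25) at r = 0.80. These were the highest called wild-type genes in an earlier analysis of the same arrays, where they rise together. The list was thus picked from these data and is no independent support. The 10 genes of the AhR and P450 set had values of -0.69 to 0.21 with it. The part of that shared pattern in the Nr1i3 value was not tested. Cyp2b10, the classic CAR target, differed by -0.63 (SE 0.49) and -0.23 (SE 0.66), and within groups it followed the ciliated list at r = 0.93. CAR activity was not tested.

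No difference between genotypes passed the test for these genes. In normoxia the 10 genes differed by -1.11 to 0.19 with a median of -0.40, against -0.01 over all genes. A negative difference was found for 8 of 10, against 52.1% of all genes. Markers of other cells moved in the same comparison without passing the test, with 0 called by limma. The macrophage list had a median of -0.99 (6 of 10 at an unadjusted limma p under 0.05, against 6.03% of all genes). The endothelial list had a median of -0.78 (6 of 12) and the smooth muscle list -0.88 (2 of 10). The part of these lists in the differences of the 10 genes was not tested. In hyperoxia, with 2 Fgf10+/- samples, they differed by -0.34 to 0.47 with a median of -0.06, 6 of 10 were negative, against 47.3% of all genes, and 0 of 10 had an unadjusted p under 0.05 by limma, against 4.37% of all genes. The second Ahr feature was lower in Fgf10+/- hyperoxia (4.46 and 4.86) than in wild-type hyperoxia (4.97 to 5.62), with a difference of -0.57, limma adjusted p = 1.0 and unadjusted p = 0.0456, while the first differed by 0.03.

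Whether the hyperoxia difference itself depended on genotype was tested with the interaction term. The interaction was largest for Cyp1b1, at 0.92 (95% interval -1.05 to 2.88), and Cyp1a1, at 0.77 (-0.57 to 2.11). It was -0.04 for Por (-0.97 to 0.89) and for Cyp2s1 (-1.64 to 1.55). By limma 0 of 10 interactions had an unadjusted p under 0.05, against 4.11% of all genes, and the narrowest 95% interval reached 0.865 to either side of its value.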

How the data were processed

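The authors deposited 1 log2 value per array feature, normalized between arrays, for 16 single-colour Agilent arrays. How background and scaling were handled is not stated there; the log base was read from the values, which end at 15.98. The sorted values of any pair of arrays differed by at most 0.204. Of 62976 features, 31439 were named through the platform annotation and RefSeq (29036 by accession, 2075 by symbol, 349 by synonym, 5 under the listed name), giving 20725 genes. The feature with the highest mean stood for a gene.

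Groups came from the sample titles. A linear model with 4 group means was fitted to all genes with limma 3.58.1 in R 4.3.3 (lmFit, eBayes), and p-values were adjusted by Benjamini-Hochberg over all genes, with calls at 0.05. The fit was tested on simulated data. Correlations used deviations from group means, with 100000 permutations within groups (two-sided). GCGTG and TNGCGTG were searched on both strands.

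Members and gene lists were chosen with earlier results of these data known. All members are named, and of each pathway list the called genes, or the 2 brightest where none was called. The 3 brightest members stand for the search of similar genes, since none was called. Alternatives were another centring, feature choice, filter on dim genes, samples in the fit, variance model, array weights, a replicate block, and leaving out samples.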

Additional observations from a re-analysis of the deposited data

Results flagged for a closer look

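Cyp1a1 in Fgf10+/- normoxia replicate 2 was 5.56, apart from the other 3 samples of its group, of which the nearest was 4.64. The gap made up 0.86 of the group's range, above Dixon's critical value for 4 samples. Among 39 sets of a feature and a group this was the only such sample, and chance alone marks about 1 set in 20. Without it the genotype difference in normoxia was -1.36 in place of -1.11, and it was -0.86 without wild-type normoxia replicate 2. The same library was 1 of the 4 thymocyte-rich ones, and the part of that in the Cyp1a1 value was not tested.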

How the results depend on the processing

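No member passed the test under any alternative. Of 480 values from other settings 453 kept their direction and 27 reversed, with a smallest limma adjusted p of 0.0683, and of 480 values with 1 sample left out 417 kept it and 63 reversed, with a smallest of 0.0742. The causes of the reversals were not tested. The values listed here and in the next paragraph also include Cyp2f2 and Nfe2l2, which are not members and are not in these counts. Centring on the median over genes and the fit of all features were chosen after seeing the data. With the replicate block the reversed values were, for hyperoxia in wild type Cyp1a2 -0.12, and for hyperoxia in Fgf10+/- Cyp1b1 0.55, Cyp2b10 0.17 and Cyp2f2 0.22, and for genotype in hyperoxia Cyp4b1 0.10 and Por 0.03, and for the interaction Cyp2s1 0.41 and Por 0.10. With each array centred on its median over genes the reversed values were, for hyperoxia in Fgf10+/- Ahrr 0.07, Cyp1a1 0.07 and Cyp1b1 0.08. With the mean of a gene's features the reversed values were, for hyperoxia in Fgf10+/- Ahrr 0.22, and for genotype in hyperoxia Ahr -0.27, and for the interaction Ahr -0.0015. With array weights the reversed values were, for hyperoxia in Fgf10+/- Ahrr 0.08, Cyp1a1 0.01 and Cyp1a2 0.11, and for genotype in normoxia Cyp2b10 -0.01, and for genotype in hyperoxia Cyp1b1 -0.02, and for the interaction Cyp1a2 0.004. With the 4 thymocyte-rich libraries left out the reversed values were, for hyperoxia in Fgf10+/- Cyp1a1 0.23 and Nfe2l2 -0.18, and for genotype in normoxia Ahrr 0.09, Cyp1a2 0.52, Cyp4b1 0.03 and Por 0.30, and for the interaction Ahrr -0.28, Cyp2b10 -0.16 and Cyp4b1 -0.09.

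With 1 sample left out, where a group of 1 was assumed to vary like the others, values changed sign as follows. For hyperoxia in wild type the range was -0.08 to 0.38 for Ahr, -0.42 to 0.06 for Ahrr and -0.12 to 0.27 for Cyp1a2. For hyperoxia in Fgf10+/- the range was -0.28 to 0.23 for Ahrr, -0.64 to 0.59 for Cyp1a1, -0.48 to 0.16 for Cyp1a2, -0.73 to 0.69 for Cyp1b1, -0.85 to 0.38 for Cyp2b10 and -0.63 to 0.23 for Cyp2f2. For genotype in normoxia the range was -0.21 to 0.27 for Cyp1a2, -0.15 to 0.34 for Cyp2b10, -0.22 to 0.49 for Cyp2s1 and -0.25 to 0.11 for Por. For genotype in hyperoxia the range was -0.54 to 0.59 for Ahr, -0.44 to 0.06 for Ahrr, -0.21 to 0.08 for Tiparp, -0.95 to 0.27 for Cyp1a1, -0.57 to 0.07 for Cyp1a2, -0.62 to 0.80 for Cyp1b1, -0.15 to 1.09 for Cyp2b10, -0.28 to 0.58 for Cyp2s1 and -0.79 to 0.68 for Cyp4b1. For the interaction the range was -0.05 to 1.09 for Ahr, -0.09 to 0.44 for Ahrr, -0.51 to 0.13 for Cyp1a2, -0.22 to 1.01 for Cyp2b10, -0.47 to 0.39 for Cyp2s1, -0.20 to 1.27 for Cyp4b1 and -0.22 to 0.14 for Por. The counts of called genes then lay between 323 and 679, 90 and 503, 0 and 9, 0 and 4, and 0 and 3, in the order of comparisons used here.

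The counts of called genes for hyperoxia in wild type were 1094 with dim genes left out, 1000 with an intensity trend and robust variance, 216 with the replicate block and 278 with the thymocyte-rich libraries left out. For hyperoxia in Fgf10+/- they were 332 with the mean of a gene's features, 816 with dim genes left out, 261 with only the groups compared, 103 with the block and 14 with the thymocyte-rich libraries left out, where 2 samples stand against 1. For genotype in normoxia they were 8 with dim genes left out, 8 with the trend, 11 with array weights, 10 with the thymocyte-rich libraries left out, and 0 with the groups compared, the block or all features. For genotype in hyperoxia 1 was called with all features. For the interaction 1 was called with dim genes or the thymocyte-rich libraries left out, and 0 with the trend, the block or all features. Ahrr and Cyp1a2 have no value where dim genes are left out, and the interaction has no fit of only the groups compared.

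Same-numbered samples correlated at -0.01 to 0.21, 0.02 to 0.05, -0.16 to 0.24 and -0.01 to 0.05 in the first 4 comparisons, so the numbers were not taken to pair samples. The best hyperoxia match of a normoxia sample had its own number in 0 of 4 cases in wild type and 2 of 2 in Fgf10+/-. The Fgf10+/- matches had r of 0.02 and 0.05, with only 2 hyperoxia samples to match. Under the block, Cyb5r3 in wild type (-0.74) and Nr1i3 in Fgf10+/- (2.72) lost their calls. The arrays gave no detection flags, so signal over background could not be used, and the number of arrays limits the precision. In simulated data 50.7% of 2-fold changes were found for hyperoxia in wild type and 21% in Fgf10+/-. The simulation drew independent noise for each gene and changed 200 genes per run, all with a mean above 4.34. It thus left out variation that genes share from array to array, and its percentages do not cover dim genes.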
